A study of Mus musculus with 24 samples.

Results

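The genes described here are 10 of the mouse acute-phase response and its STAT3 signalling axis: *Saa1*, *Saa2*, *Saa3*, *Lcn2*, *Orm1*, *Orm2*, *Hp*, *Apcs*, *Socs3* and *Stat3*. They were selected by gene name from tables that list 54733 genes for each of 24 liver libraries, and all 10 were found in every table. All 10 also passed the filter for testing, a mean of at least 1 FPKM over the libraries, which 11244 genes passed. The set was chosen by measured FPKM values of these libraries seen earlier, above all the gap between the 2 ΔRRE libraries of CT14. That gap, and how the genes move together across libraries, is therefore described with values and without a test.

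The acute-phase response is the liver's reaction to injury, infection or another inflammatory stimulus. Interleukin-6 and related cytokines bind receptors that share the subunit gp130, JAK kinases then phosphorylate STAT3, and STAT3 works with C/EBP and NF-κB factors to raise transcription of secreted plasma proteins in hepatocytes. SOCS3 is made in the same response and feeds back on the receptor. Serum amyloid A proteins and lipocalin 2 are known for very large inductions, whereas haptoglobin and orosomucoid are abundant in healthy liver and are induced less steeply.

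The libraries came from livers of male C57BL/6 mice, either wild type (WT) or ΔRRE (delta-RRE in the labels). ΔRRE mice carry a deletion, made by CRISPR-Cas9, of the ROR response elements (RREs) through which ROR and REV-ERB proteins drive the daily rhythm of the clock gene *Bmal1*. The deletion is in the germ line, so it is present in every cell of the liver, and the study used 1 mouse line unless it said otherwise. Each genotype was sampled at circadian times CT2, CT6, CT10, CT14, CT18 and CT22, with 2 libraries per genotype and time point and no further treatment in any group. The mice were 8 to 24 weeks old and in constant darkness when tissue was taken, an age range given for all tissues and not for each library. It was not stated that each library was 1 animal, so the spread between the 2 libraries of a group may be partly technical.

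Values are FPKM, fragments scaled by transcript length and by the mapped fragments of the library, which allows levels to be compared between genes. The tables summed to between 554170 and 624746 FPKM per library. The number of reads behind a value is unknown, so no counting error can be given. *Bmal1*, listed as Arntl, ranged from 0.0919 to 13.2 FPKM over the 12 WT libraries and from 2.1 to 4.21 FPKM over the 12 ΔRRE libraries. Hepatocyte markers were present throughout, with a summed level of 6 markers from 25496 to 43073 FPKM. These are bulk samples, so more RNA per cell and more cells that express a gene cannot be told apart.

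In GENCODE M21 on GRCm38, *Saa1* (chr7:46740497-46742980, minus strand), *Saa2* (chr7:46751790-46754313, plus strand) and *Saa3* (chr7:46711998-46715700, minus strand) are neighbours. *Orm1* (chr4:63344560-63348163) and *Orm2* (chr4:63362449-63365878) also lie side by side, both on the plus strand. The transcripts of *Saa1* and *Saa2* were identical at 94.4% of 606 aligned bases, and 24.0% of the 30-base windows of *Saa1* occurred in *Saa2*. For *Orm1* and *Orm2* the identity was 91.0%, with 28% of the windows shared. How the reads of such near copies were divided between them is not given in the sources used here, so the split between *Saa1* and *Saa2*, and between *Orm1* and *Orm2*, is uncertain. *Stat3* overlaps *Stat5a* on the opposite strand in this annotation, and whether counting used strand is not stated.

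RefSeq promoters (GRCm38.p6, 250 bases before to 50 after the start) were available for 8 of the 10 genes, all but *Hp* and *Orm1*. They were searched on both strands for the motifs of factors named above: TTCNNNGAA for STAT, TTGCNNAA for C/EBP and NF-κB, which is GGG and TTCC with 3 free bases between them. The STAT letters occurred in the promoters of *Apcs* and *Socs3* and in 8.30% of all 32851 promoters. The C/EBP letters occurred in those of *Saa1*, *Saa2*, *Saa3*, *Lcn2* and *Orm2* and in 10.8% of all promoters, and the NF-κB letters in 0 of the 8 and in 5.56% of all. A match is a run of letters and not a shown binding site, and the lack of one says only that these letters are not in this window. The genes that carry C/EBP letters include the 4 with the widest range across libraries, but also *Saa3*, whose highest library exceeded its lowest by 4.62-fold. That range includes the ΔRRE CT14 values by which the set was chosen, and a link between letters and range was not tested. The windows of all matches are printed 5′ to 3′ along the gene, with the motif in capitals.
*Saa1*, C/EBP, chr7:46743144-46743173: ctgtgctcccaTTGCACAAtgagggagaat
*Saa2*, C/EBP, chr7:46751639-46751668: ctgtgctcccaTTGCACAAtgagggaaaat
*Saa3*, C/EBP on the opposite strand, chr7:46715757-46715786: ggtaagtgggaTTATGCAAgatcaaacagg
*Lcn2*, C/EBP, chr2:32387937-32387966: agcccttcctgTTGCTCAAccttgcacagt
*Orm2*, C/EBP on both strands, chr4:63362318-63362347: gagagaacattTTGCGCAAgacatttccca
*Apcs*, STAT, chr1:172895275-172895304: atcttcTTCTAGGAAagcacagggtcatga
*Socs3*, STAT, chr11:117969501-117969530: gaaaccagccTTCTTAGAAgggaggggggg

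The C/EBP letters start at -182 from the start of *Saa1* and at -183 from that of *Saa2*, and the promoters of these neighbours were identical at 96.0% of 299 aligned bases. In *Orm2* it starts at -120, in *Lcn2* at -216 and in *Saa3* at -99. The STAT letters start at -154 in *Socs3* and at -244 in *Apcs*.

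Serum amyloid A proteins are apolipoproteins of HDL that appear in the plasma during inflammation. *Saa1* measured 20.5 FPKM in the lowest WT library, 67.5 in the median and 445 in the highest. In ΔRRE livers the lowest was 25.4 FPKM, the median 268 and the highest 1069. *Saa2* ran from 9.41 over a median of 27.4 to 159 FPKM in WT and from 9.34 over a median of 61.8 to 751 FPKM in ΔRRE. The genotypes overlapped over most of these ranges, and the highest library of a genotype exceeded the lowest by 16.9-fold to 80.4-fold for these genes. *Saa3*, a paralog made largely outside hepatocytes, was low and narrow, with 2.77 to 8.04 FPKM in WT (median 5.96) and 4.32 to 12.8 FPKM in ΔRRE (median 6.32).

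*Lcn2* encodes lipocalin 2, which binds bacterial siderophores and so withholds iron. It measured 2.62 to 25.9 FPKM in WT (median 7.47) and 2.86 to 205 FPKM in ΔRRE (median 13.4). The orosomucoids, plasma carriers of basic and lipophilic compounds, differed in level by more than an order of magnitude. *Orm1* measured 693 to 1075 FPKM in WT (median 872) and 702 to 1815 in ΔRRE (median 1037), and *Orm2* 15.0 to 48.5 FPKM in WT (median 26.2) and 12.6 to 281 in ΔRRE (median 42.9). *Orm1* was thus abundant and steady in WT, with a coefficient of variation of 15.8% over the 12 libraries, against 95.3% for *Saa1* and 99.8% for *Saa2*.

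*Hp* (haptoglobin, which captures free haemoglobin) was the most abundant of the 10, with 1169 to 3434 FPKM in WT (median 1751) and 1409 to 5247 in ΔRRE (median 2075). *Apcs* (serum amyloid P component, a pentraxin that is a main acute-phase protein of mice) measured 27.4 to 171 FPKM in WT (median 55.3) and 41.4 to 254 in ΔRRE (median 66.6). Of the signalling genes, *Socs3* was the lower. *Socs3* measured 1.40 to 11 FPKM in WT (median 4.65) and 1.31 to 19.7 in ΔRRE (median 6.00), and *Stat3* 17.3 to 40.2 FPKM in WT (median 26.0) and 17.9 to 40.6 in ΔRRE (median 33.7). For 9 of the 10 genes the highest of all 24 values was that of ΔRRE CT14 replicate 1, and for *Stat3* it was that of ΔRRE CT6 replicate 2. Together the 10 genes made up 0.343% to 0.828% of all FPKM in WT libraries (median 0.494%) and 0.404% to 1.74% in ΔRRE libraries (median 0.662%).

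**Figure D1:**
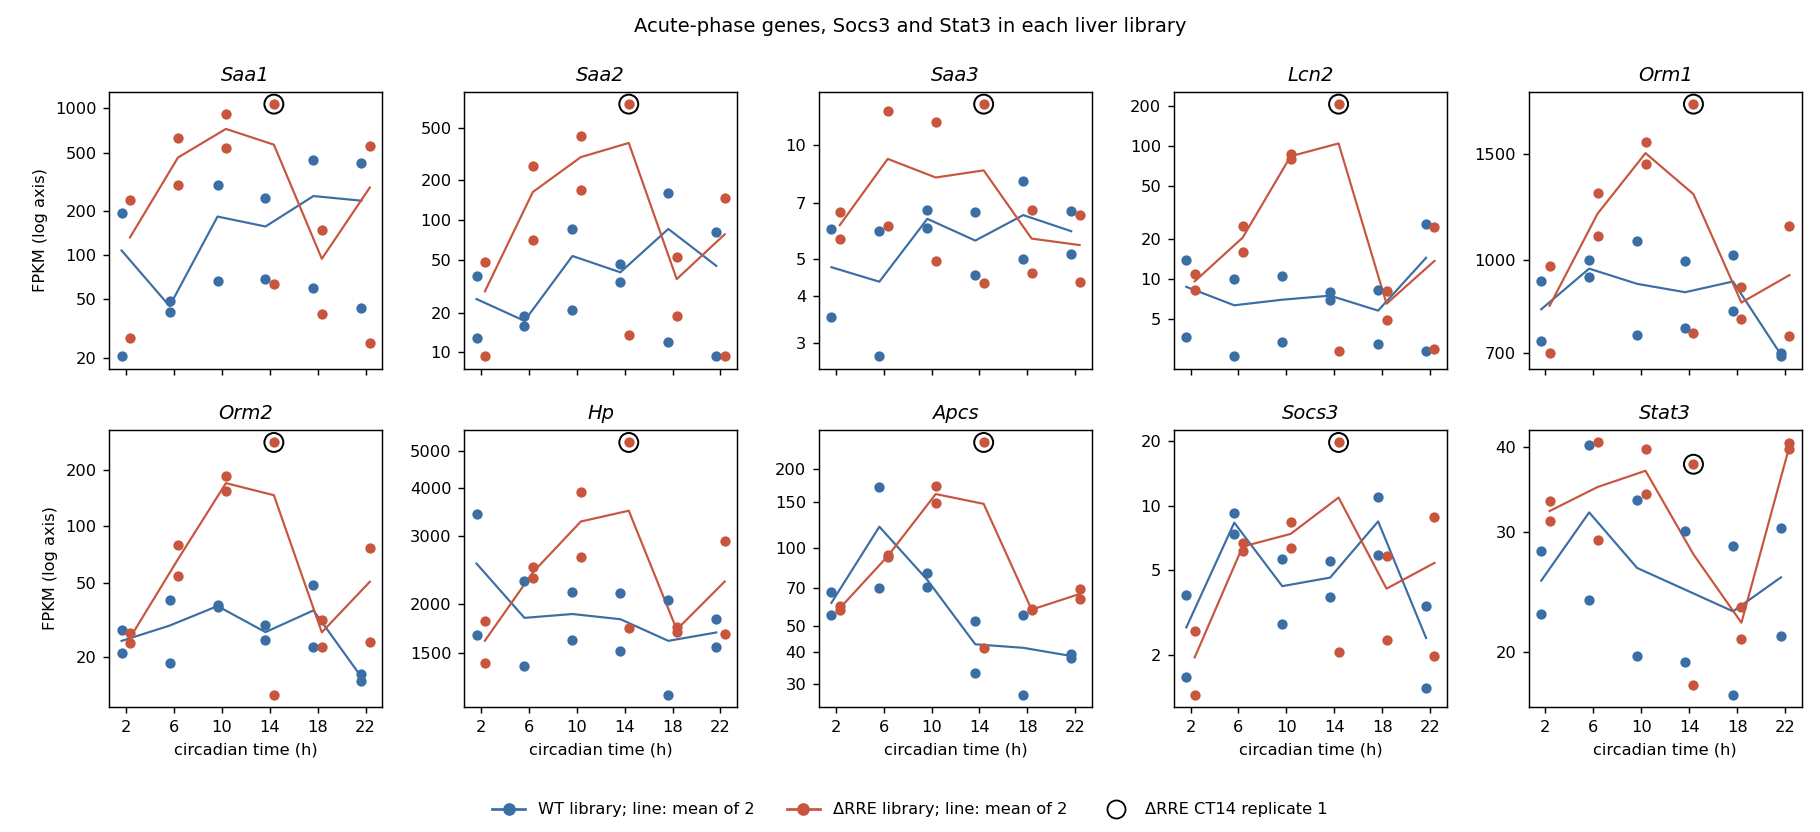
FPKM of each of the 10 genes (log axis) against circadian time in hours. Points are single libraries (WT blue, ΔRRE red), lines join the means of 2 libraries, and the ring marks ΔRRE CT14 replicate 1, the highest library for 9 of the 10 genes. Both ΔRRE points of CT10 lie above both WT points for all but *Saa3*.

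The 2 ΔRRE libraries of CT14 stood at opposite ends of the set. *Lcn2* measured 205 FPKM in replicate 1 and 2.86 in replicate 2, a ratio of 71.7. *Saa2* measured 751 and 13.4 FPKM (ratio 56.0), *Orm2* 281 and 12.6 FPKM (22.3) and *Saa1* 1069 and 63.2 FPKM (16.9). The other 6 genes had smaller gaps. *Socs3* measured 19.7 and 2.07 FPKM, *Apcs* 254 and 41.4 FPKM, *Hp* 5247 and 1743 FPKM. *Saa3* measured 12.8 and 4.32 FPKM, *Orm1* 1815 and 758 FPKM, and *Stat3* 37.7 and 17.9 FPKM. All 10 genes were thus higher in replicate 1, each by over 1 on the log2(FPKM + 0.1) scale (*Stat3* by 0.99 with the libraries scaled by the median of ratios), a size of gap that 7.34% of all genes tested showed in either direction between these libraries.

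On that scale the median gap of the 10 genes at ΔRRE CT14 was 2.90, against a median size of 0.27 over all genes tested. No other group had more than 5 of the 10 genes past a log2 gap of 1. In WT there were 5 genes at CT2 (4.33% of all genes), 4 at CT6 (6.08%), 3 at CT10 (5.54%), 1 at CT14 (5.64%), 5 at CT18 (4.83%) and 4 at CT22 (4.21%). In ΔRRE there were 2 at CT2 (4.74%), 2 at CT6 (4.86%), 2 at CT10 (5.43%), 3 at CT18 (4.02%) and 5 at CT22 (4.18%). *Saa1* and *Saa2* differed by over 1 between replicates in 10 of the 12 groups and *Lcn2* in 7, whereas *Orm1* and *Stat3* did so in 1. The gaps were often shared. At WT CT18 and ΔRRE CT18 replicate 2 was the higher library for all 10 genes, and at WT CT2, WT CT14 and ΔRRE CT2 for 9 of 10.

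Examples of such shared gaps lay in both genotypes. At ΔRRE CT22 *Saa1* measured 552 FPKM in replicate 1 and 25.4 in replicate 2, *Lcn2* 24.3 and 2.95 FPKM, and *Hp* 2911 and 1674 FPKM. At WT CT22 the same 3 genes measured 426 and 43.7 FPKM, 25.9 and 2.89 FPKM, and 1833 and 1552 FPKM. Replicate 1 was the higher library for each of them in both groups. At WT CT18 *Saa2* measured 11.9 FPKM in replicate 1 and 159 in replicate 2, with replicate 2 the higher.

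**Figure D2:**
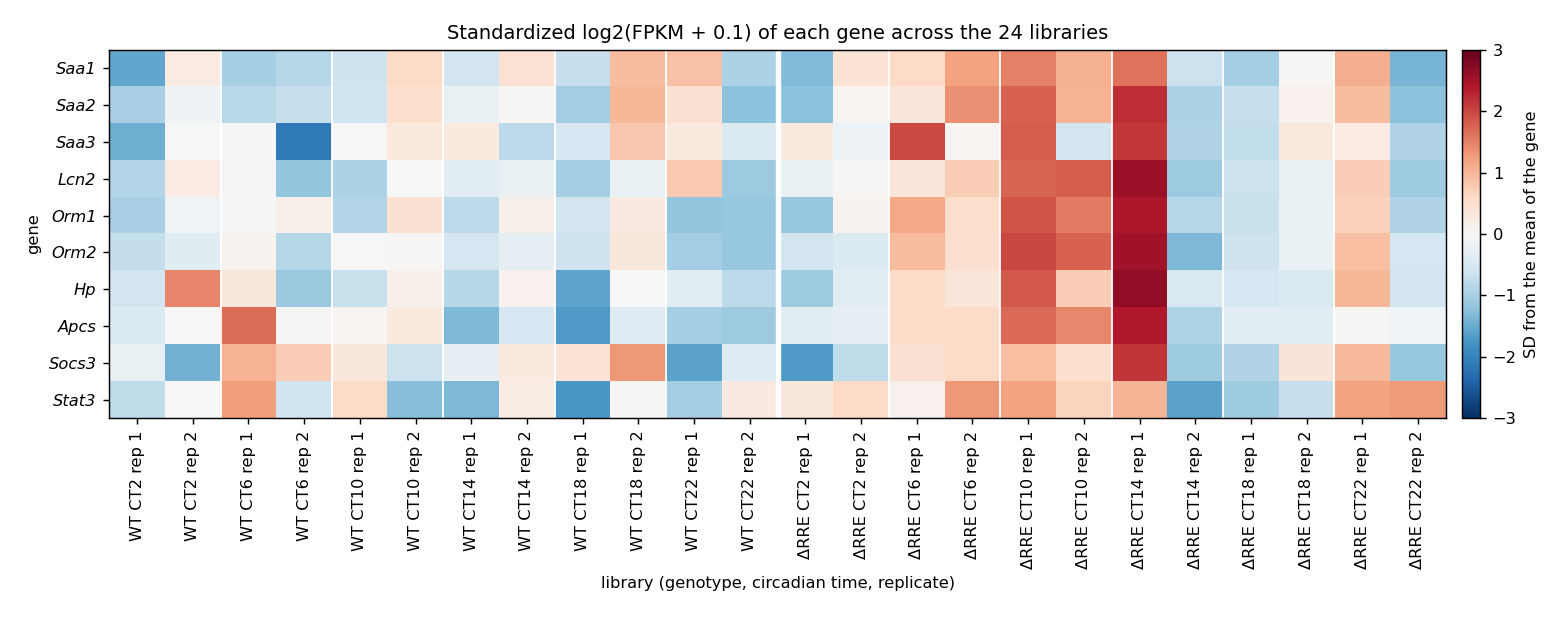
Heat map of the 10 genes (rows) in the 24 libraries (columns, by genotype, circadian time and replicate). Colour is the log2(FPKM + 0.1) value in SD from the mean of that gene. ΔRRE CT14 replicate 1 and ΔRRE CT10 replicate 1 are red for all 10 genes, and ΔRRE CT14 replicate 2 is blue for all 10.

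A mean over the 10 genes of these standardized values orders the libraries. The highest were ΔRRE CT14 replicate 1 (2.17 SD), ΔRRE CT10 replicates 1 (1.64) and 2 (1.01), ΔRRE CT22 replicate 1 (0.78) and both libraries of ΔRRE CT6 (0.72 each). The highest WT libraries were CT18 replicate 2 (0.41) and CT6 replicate 1 (0.25). The lowest library was ΔRRE CT14 replicate 2 (-0.99). All 6 libraries at the top were thus ΔRRE, while the 6 libraries at the bottom held 3 of each genotype.

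At CT10 both ΔRRE libraries lay above both WT libraries for 9 of the 10 genes, all but *Saa3*, beside 17.4% of all genes tested. The 10 genes moved together across libraries and were chosen by values of these libraries. This count, and those at other times, therefore do not stand for separate results. *Lcn2* measured 3.35 and 10.6 FPKM in WT and 79.4 and 87.1 FPKM in ΔRRE. *Orm2* measured 36.8 and 38.1 FPKM in WT and 186 and 155 FPKM in ΔRRE. *Apcs* measured 70.6 and 80.2 FPKM in WT and 173 and 149 FPKM in ΔRRE. In these 3 genes the replicates of each genotype lay closer to each other than to the other genotype. The gap was smaller against the spread for *Saa1*, at 66.3 and 300.4 FPKM in WT and 916 and 533 FPKM in ΔRRE. *Saa2* measured 20.9 and 86.0 FPKM in WT against 429.5 and 168 FPKM in ΔRRE. *Hp* measured 1622 and 2156 FPKM in WT and 3909 and 2645 FPKM in ΔRRE. *Orm1* measured 752 and 1075 FPKM in WT and 1568 and 1441 FPKM in ΔRRE. *Stat3* and *Socs3* were also without overlap but close. *Stat3* measured 33.4 and 19.7 FPKM in WT against 39.7 and 34.1 FPKM in ΔRRE, and *Socs3* 5.60 and 2.80 FPKM against 8.40 and 6.35 FPKM.

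At CT6 both ΔRRE libraries lay above both WT libraries for 7 of the 10 genes (*Saa1*, *Saa2*, *Saa3*, *Lcn2*, *Orm1*, *Orm2* and *Hp*), beside 16.2% of all genes. *Saa1* measured 41.3 and 48.7 FPKM in WT and 299 and 626 FPKM in ΔRRE. *Saa2* measured 15.8 and 18.8 FPKM in WT and 70.7 and 255 FPKM in ΔRRE. At this time both genes had nearly equal WT replicates and ΔRRE values several times higher. By contrast, *Hp* and *Saa3* were without overlap only by a narrow margin. *Hp* measured 2305 and 1387 FPKM in WT and 2507 and 2335 FPKM in ΔRRE. *Saa3* measured 5.93 and 2.77 FPKM in WT and 12.2 and 6.11 FPKM in ΔRRE. *Apcs* and *Stat3* overlapped at CT6, and *Socs3* lay lower in both ΔRRE libraries, at 9.25 and 7.40 FPKM in WT and 6.16 and 6.71 FPKM in ΔRRE. Both ΔRRE libraries lay lower than both WT libraries for 11.8% of all genes at CT6.

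The other times gave fewer such genes. At CT14 it was 0 of 10 (17.4% of all genes), since ΔRRE replicate 2 lay low for each of them. At CT2 it was *Stat3* (18.6% of all genes) and at CT18 *Apcs* (24.5%). At CT22 *Orm1*, *Orm2*, *Apcs* and *Stat3* were higher without overlap (21.7%). *Apcs* at CT22 measured 39.3 and 37.7 FPKM in WT and 69.5 and 63.6 FPKM in ΔRRE, and *Stat3* 21.1 and 30.3 FPKM in WT and 39.6 and 40.4 FPKM in ΔRRE. *Socs3* at CT18 was lower in both ΔRRE libraries (2.34 and 5.84 FPKM against 5.90 and 11 FPKM in WT), as 6.72% of all genes were at that time. With 2 libraries in each group, single times were not tested. The test that the genotype difference varies between time points found 0 of the 10 genes in limma at an adjusted p under 0.05 and 0 at an unadjusted p under 0.05, with 0.0356% and 3.31% of all genes.

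Averaged over the 6 time points, none of the 10 genes differed between genotypes in limma after adjustment over all genes tested, and none of the 11244 genes did (0.0%). All 10 log2 differences were above 0, as were 65.5% of those of all genes. The largest were those of *Lcn2* (1.34, SE 0.60, adjusted p = 0.527 in limma), *Saa2* (1.14, SE 0.67, adjusted p = 0.657) and *Orm2* (0.96, SE 0.37, adjusted p = 0.464). *Saa1* had a difference of 0.94 (SE 0.68) and *Apcs* of 0.58 (SE 0.24). *Hp* (0.32), *Saa3* (0.30), *Stat3* (0.29) and *Orm1* (0.29) had smaller ones. *Socs3*, at 0.07 with a standard error of 0.34, was close to 0. The unadjusted p was under 0.05 for 5 of the 10, all higher in ΔRRE (*Lcn2*, *Orm1*, *Orm2*, *Apcs* and *Stat3*), beside 8.91% of all genes in either direction and 7.16% higher in ΔRRE. These counts moved with the scale of the libraries. With the libraries scaled by the median of ratios 3 of the 10 were under 0.05, all higher, and of all genes 419 of 781 under 0.05 were higher in ΔRRE, against 805 of 1002 on the FPKM scale and 1514 of 1635 after scaling to TPM, where 5 of the 10 were under 0.05.

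Without ΔRRE CT14 replicate 1 the unadjusted p was under 0.05 for 2 of the 10, *Orm2* and *Apcs*, both higher in ΔRRE. Of all 11232 genes in this fit, 842 were under 0.05, 673 of them higher in ΔRRE. The difference of *Lcn2* was then 0.96, that of *Orm2* 0.69, that of *Apcs* 0.38 and that of *Socs3* -0.14, a change of sign. The exact permutation test of single genes, two-sided over the 46656 ways to split the 4 libraries at every time into pairs, gave p = 0.026 for *Orm2*, 0.029 for *Apcs*, 0.045 for *Orm1* and 0.058 for *Lcn2*. Without ΔRRE CT14 replicate 1 the exact permutation p over 23328 such ways was 0.093 for *Orm2*, 0.065 for *Apcs*, 0.128 for *Orm1* and 0.156 for *Lcn2*. All these permutation p are unadjusted for the 10 genes. The set was chosen by values that enter both the permutation p and the limma genotype p, so these p are descriptive. The number of time points at which the ΔRRE mean of the log2(FPKM + 0.1) values was higher was 5 for *Lcn2*, *Orm1*, *Orm2*, *Hp* and *Stat3*. It was 4 for *Saa1*, *Saa2*, *Saa3* and *Apcs*, and 3 for *Socs3*.

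**Figure D3:**
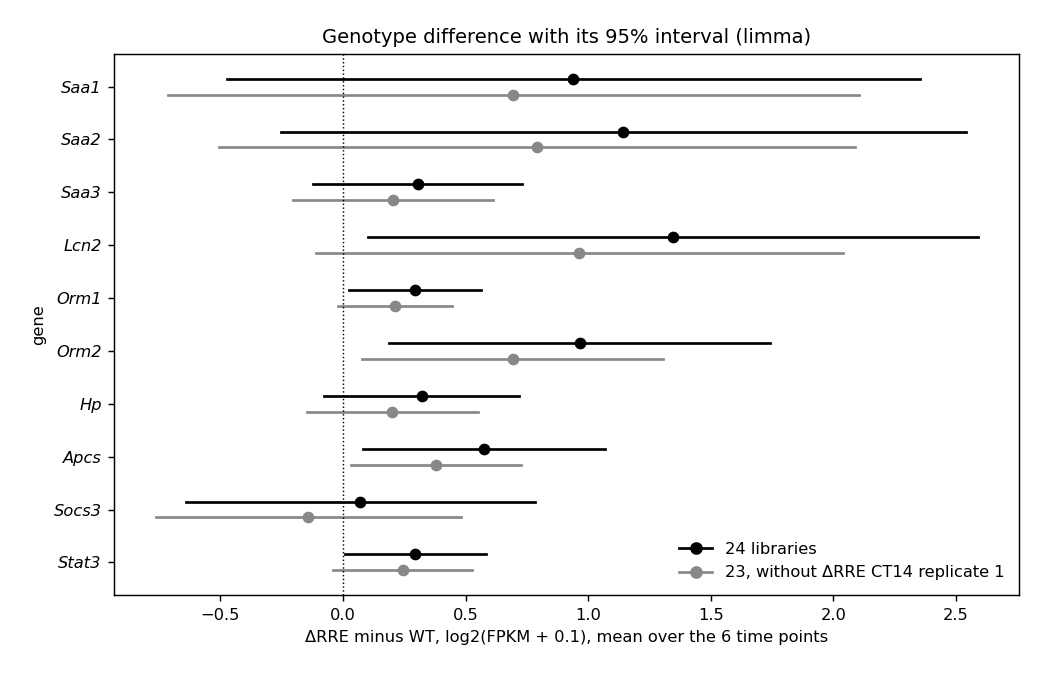
ΔRRE minus WT difference of each gene on the log2(FPKM + 0.1) scale, averaged over 6 time points, with its 95% interval from limma. Black is from 24 libraries and grey without ΔRRE CT14 replicate 1. All 10 black points lie right of 0, and *Socs3* moves to the left of 0 without that library.

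A 24 h wave shared by both genotypes was found for 2 of the 10 genes in limma at an adjusted p under 0.05, against 30.6% of all genes tested. With *Orm2*, 3 of the 10 had an unadjusted p under 0.05, beside 42.1%. *Apcs* had an amplitude of 0.64 on the log2 scale with a peak at CT8.3 (adjusted p = 0.013 in limma). *Orm1* had an amplitude of 0.28 with a peak at CT10.1 (adjusted p = 0.047 in limma). *Orm2*, at 0.74 and CT10.3, did not pass (adjusted p = 0.076 in limma). The fitted waves of the other genes peaked between CT9.5 and CT11.9, except that of *Stat3* at CT4.8, and none of them passed. The call of *Apcs* was kept in each of the 24 fits that left out 1 library. The call of *Orm1* was kept in 7 of these fits and lost in 17, with an adjusted p from 0.015 to 0.103, and *Orm2* passed without ΔRRE CT14 replicate 2 (0.0081) or ΔRRE CT22 replicate 1 (0.036).

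In WT livers alone, *Apcs* passed with an amplitude of 0.76 and a peak at CT6.6 (adjusted p = 0.026 in limma), the only one of the 10, beside 10.3% of all genes. It was also the only one with an unadjusted p under 0.05, beside 27.6% of all genes. Its WT means were highest at CT6 (121 ± 71.5 FPKM, SD, n = 2) and lowest at CT22 (38.5 ± 1.08 FPKM, SD, n = 2). This call was lost without WT CT10 replicate 2 (adjusted p = 0.052 in limma) and without WT CT18 replicate 1 (0.075). In ΔRRE livers 0 of the 10 passed in limma, beside 4.57% of all genes, and 2 had an unadjusted p under 0.05 (*Orm1* and *Apcs*), beside 22.6%.

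The ΔRRE means of *Apcs* were highest at CT10 (161 ± 16.5 FPKM, SD, n = 2) and the fitted ΔRRE peak was at CT10.2. *Apcs* passed in ΔRRE without ΔRRE CT14 replicate 2 (adjusted p = 0.028 in limma). By the 3 criteria of the study, which are looser, 3 genes were rhythmic in WT (*Saa1*, *Orm2* and *Apcs*, beside 37.0% of all genes) and 9 in ΔRRE (all but *Saa3*, beside 35.4%). The p in these criteria was that of the 24 h wave, since BIO_CYCLE was not run here. The ΔRRE CT14 values by which the set was chosen enter the ΔRRE count and every wave test that used ΔRRE libraries. The 10 genes also moved together across libraries, so these counts are descriptive and do not stand for separate results. The difference in rhythm between the genotypes, tested directly, passed for 0 of the 10 genes in limma and had no unadjusted p under 0.05 among them, with 0.00889% and 2.84% of all genes. A rhythm in one genotype only was therefore not shown for any of them.

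Across the 24 libraries the log2(FPKM + 0.1) values of the 10 genes moved together. Pearson's r was above 0 for all 45 pairs of genes, with a mean of 0.654 and a range from 0.321 to 0.953, and the mean Spearman's rho was 0.595. The libraries share genotypes and time points and were made from whole liver, so these r describe the set and carry no p. The closest pair was *Saa1* and *Saa2* (r = 0.953), followed by *Orm1* and *Orm2* (r = 0.92), the pairs of near copies. Of the rest, *Saa2* and *Lcn2* had an r of 0.883 and *Lcn2* and *Orm2* of 0.864. *Stat3* was the loosest member, with a mean r of 0.462 with the other 9, and *Socs3* the next with 0.510. *Orm2* was the most central, with a mean r of 0.773.

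Without ΔRRE CT14 replicate 1 the mean r over 23 libraries was 0.577, and all 45 pairs were still above 0 (0.193 to 0.954). The mean r was higher in ΔRRE than in WT. In the 12 ΔRRE libraries the mean r was 0.787 (0.349 to 0.971), and in the 11 without CT14 replicate 1 it was 0.741. In the 12 WT libraries it was 0.302, with 36 pairs above 0 and a range from -0.49 to 0.921. This difference between the genotypes was not tested.

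The WT pairs below 0 all held *Socs3*, *Stat3* or *Apcs*. *Lcn2* and *Socs3* had an r of -0.49, *Hp* and *Socs3* of -0.31 and *Saa1* and *Socs3* of -0.27. In WT *Socs3* had a mean r of 0.018 with the other 9, and in ΔRRE of 0.813, or 0.754 without CT14 replicate 1. Within WT a tight subset remained. *Saa1* and *Saa2* had an r of 0.921 there, *Saa1* and *Lcn2* of 0.734, and *Saa2* and *Lcn2* of 0.705. Other close pairs in WT were *Lcn2* and *Hp* (r = 0.682), *Apcs* and *Stat3* (0.661) and *Orm1* and *Orm2* (0.625).

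**Figure D4:**
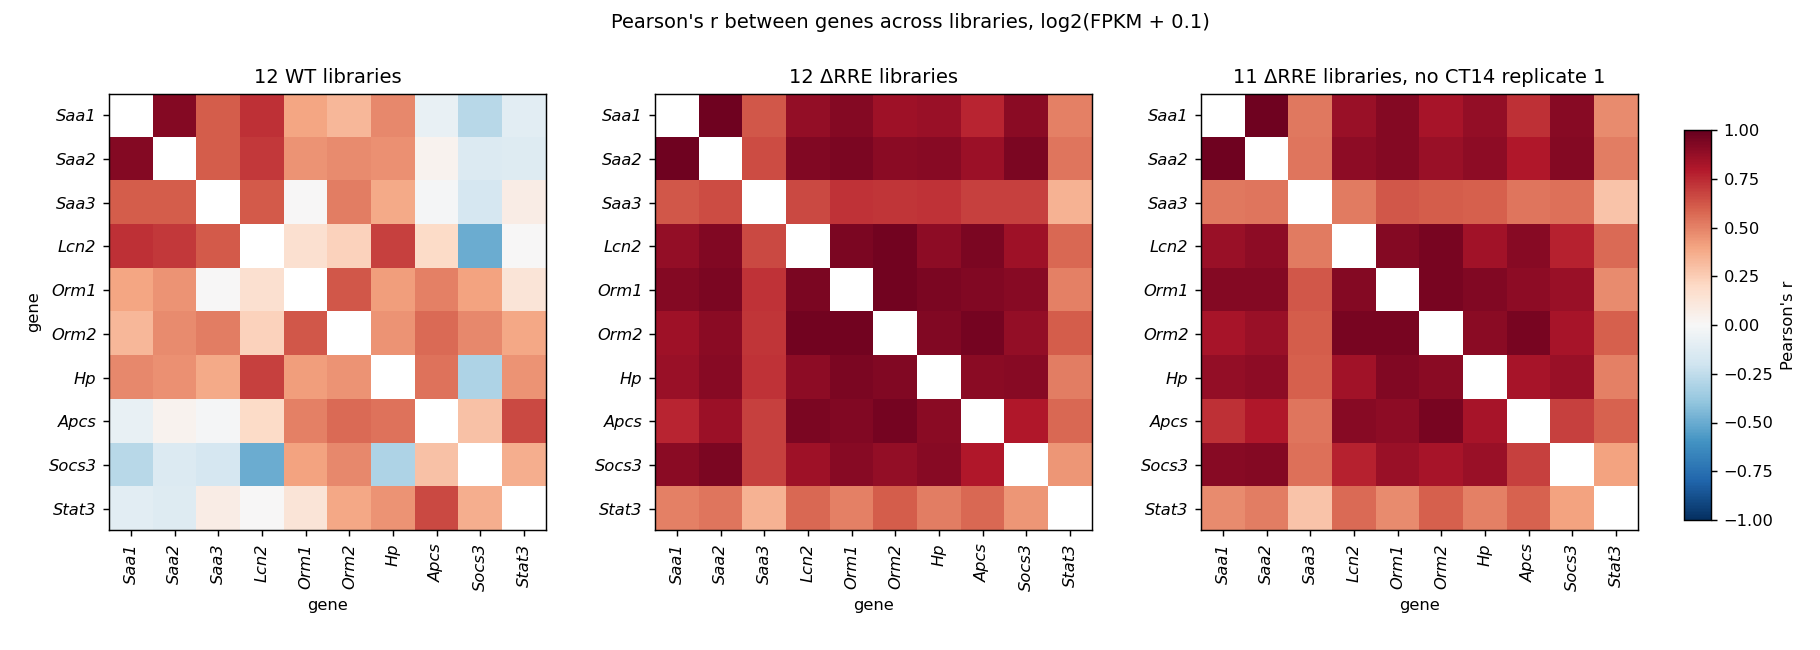
Pearson's r between each pair of the 10 genes on the log2(FPKM + 0.1) scale, in 12 WT libraries, 12 ΔRRE libraries and 11 ΔRRE libraries without CT14 replicate 1. Red is above 0 and blue below. The ΔRRE panels are red throughout (mean r 0.787 and 0.741), and the WT panel is paler (0.302) with blue cells for *Socs3*.

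The same held of the gaps between replicates, which genotype and time of day do not set. The deviations of each library from the mean of its group had a mean r of 0.693 over the 12 groups, and of 0.504 over 11 groups without ΔRRE CT14. In the latter, *Saa1* and *Saa2* had an r of 0.948, while *Socs3* and *Stat3* had a mean r with the other 9 of 0.303 and 0.281. The genes for secreted proteins were thus the ones whose replicate gaps went together most.

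The 10 genes of all others tested whose levels were most like the mean standardized level of the set were again largely acute-phase or plasma protein genes. Over 24 libraries *Hpx* (hemopexin, the haem carrier of plasma) had the highest r, 0.935, followed by *Fgl1* (0.923), *Lrg1* (0.917), *Itih4* (0.916), *Serping1* (0.913, the C1 inhibitor) and *Itih3* (0.905). *Cd302*, *Ambp*, *Vtn* and *Cfi* followed with r from 0.863 to 0.895. *Hpx* measured from 1654 to 6215 FPKM, highest in ΔRRE CT14 replicate 1 like 8 others of these 10. Without that library 9 of the 10 genes stayed among the 10 most alike, and *C4b* (complement C4) took the place of *Cfi*.

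Other genes of the pathway were read as lists, with counts and medians beside those of all genes tested. The list of 32 other positive acute-phase genes had 30 that were tested. Their median genotype difference was 0.24 on the log2 scale, against 0.04 for all genes and 0.45 for the 10 genes. None passed in limma at an adjusted p under 0.05 (smallest 0.343), while 15 had an unadjusted p under 0.05, all of them higher in ΔRRE, beside the 7.16% of all genes given above. The count was 9, again all higher, both without ΔRRE CT14 replicate 1 (median 0.20) and with the libraries scaled by the median of ratios (median 0.20). Of all genes, 673 of 11232 were under 0.05 and higher in ΔRRE in the first of these fits, and 419 of 11229 in the second. Among the named genes *Fgl1*, a secreted hepatocyte protein, had a difference of 0.61 (adjusted p = 0.508 in limma) and *Lbp*, the lipopolysaccharide-binding protein, of 0.55 (adjusted p = 0.388 in limma).

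Between the 2 ΔRRE libraries of CT14, 15 of these 30 genes were higher in replicate 1 by over 1 on the log2 scale and none was lower by that much, with a median gap of 0.91. The widest were the metallothioneins, which bind zinc and are also induced by glucocorticoids. *Mt2* measured 479.8 and 4.32 FPKM and *Mt1* 1536 and 32.9 FPKM, and unlike most of the 10 genes both had a joint 24 h wave in limma (*Mt1*, amplitude 2.11, adjusted p = 0.0055, *Mt2*, amplitude 2.38, adjusted p = 0.037). *Fgl1* measured 1149 and 164 FPKM, *Lrg1* 872 and 207 FPKM, and *Lbp* 65.1 and 17.9 FPKM. The fibrinogen chains, which build the clot, differed less, with log2 gaps of 1.54 for *Fga* and 1.45 for *Fgb* and *Fgg*. *Hpx* (1.54) and *Hamp2* (1.45) completed the 10 widest.

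Several of the other positive acute-phase genes stayed apart from the set. *Hamp* measured 1767 and 1853 FPKM in the 2 ΔRRE CT14 libraries and had an r of 0.11 with the mean standardized level of the 10 genes. That r was -0.06 for *Serpina1a* and 0.07 for *Serpina1b*. *Crp*, a main acute-phase protein of humans but not of mice, was another such gene. It measured 169 and 150.5 FPKM in the 2 ΔRRE CT14 libraries, had an r of 0.05 with the mean standardized level of the 10 genes, and had its own joint wave (amplitude 0.27, peak CT23.6, adjusted p = 1.1e-04 in limma). Of the 30 tested genes of this list, 12 had a joint wave in limma, or 40.0%, beside 30.6% of all genes.

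**Figure D5:**
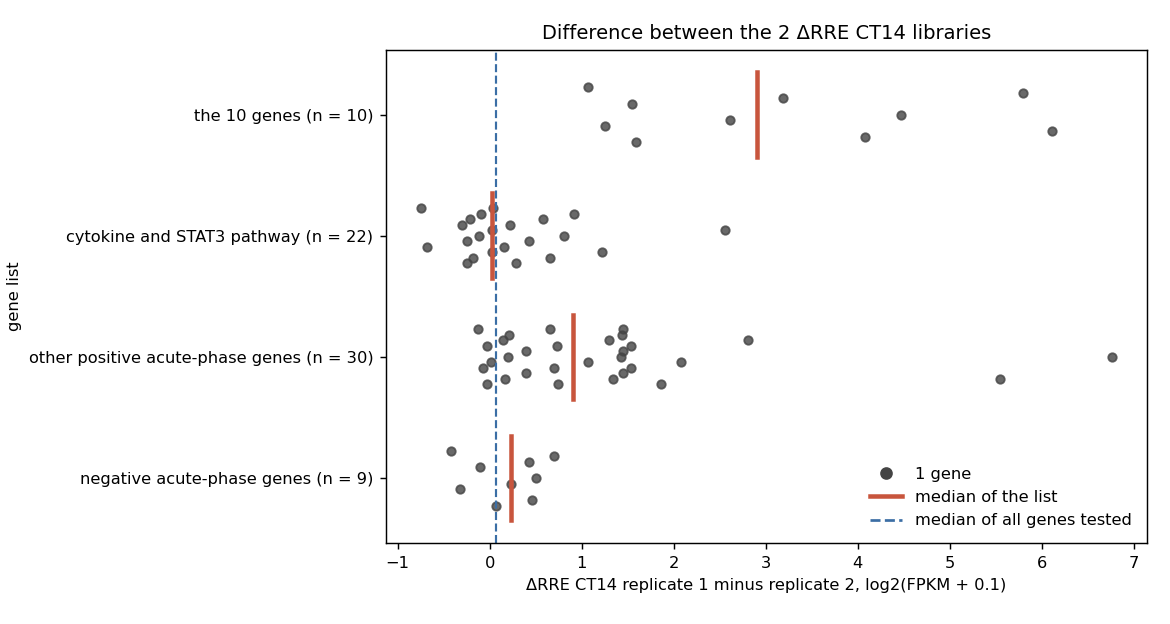
Gap between the 2 ΔRRE CT14 libraries, replicate 1 minus replicate 2 on the log2(FPKM + 0.1) scale, for the tested genes of each list. Points are genes, thick bars list medians (2.90 for the 10 genes, 0.03, 0.91 and 0.23 for the lists below) and the dashed line the median of all genes tested (0.07).

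Most tested genes of the cytokine and STAT3 pathway list, which holds feedback genes as well as upstream ones, did not show the gap. *Stat3* and *Socs3*, which did show it, are counted with the set and not in this list. The cytokine genes of the list were below the filter for testing. RNA levels do not show phosphorylation, so the activity of the pathway was not tested. Of the cytokine and STAT3 pathway list, 22 of 30 genes were tested, with a median log2 gap of 0.03 between the ΔRRE CT14 libraries and a median genotype difference of 0.07. None passed for genotype in limma, and 6 of the 22 had an unadjusted p under 0.05, beside 8.91% of all genes. Of these 4 were higher in ΔRRE, *Il6st* (0.21) and *Nfkbia* (0.25) among them, and *Bcl3* (-0.33) and *Cebpa* (-0.14) were lower. With the libraries scaled by the median of ratios the count was 3, of which 1 was higher. Of all 11229 genes, 781 were under 0.05 on that scale, 419 of them higher. *Il6* was listed at 0 in 22 of 24 libraries, with a highest value of 0.0731 FPKM. Its receptor *Il6ra* measured 11.3 and 13.1 FPKM in the 2 ΔRRE CT14 libraries, and the shared subunit *Il6st* 16.2 and 13.9 FPKM. The kinase gene *Jak1* was nearly flat over all libraries, at 18.5 to 26.6 FPKM. The genes of the list past a log2 gap of 1 were *Tnfrsf1a*, a TNF receptor, at 54.2 and 23.2 FPKM, and *Cish*, a feedback inhibitor related to SOCS3, at 5.08 and 0.780 FPKM.

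In this list 11 of the 22 tested genes, or 50%, had a joint 24 h wave in limma, beside 30.6% of all genes and 2 of the 10. *Il6ra* had an amplitude of 0.80 and a peak at CT13.7 (adjusted p = 1.1e-04 in limma). *Cebpb*, which encodes a C/EBP factor of the response, had an amplitude of 0.58 and a peak at CT12.5 (adjusted p = 4.0e-04 in limma). *Cebpd* was low, with 0.666 to 3.15 FPKM, and peaked at CT12.1 (adjusted p = 0.041 in limma). *Cebpb* and *Cebpd* were highest in ΔRRE CT10 replicate 2. Their r with the mean standardized level of the 10 genes was 0.50 and 0.57 over 24 libraries, and 0.46 and 0.55 without ΔRRE CT14 replicate 1. The median r of the list was 0.05, and *Cebpa*, the third C/EBP gene of the list, had an r of 0.0014 and was highest in WT CT10 replicate 1 (217 FPKM).

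The 9 negative acute-phase genes, whose products fall in plasma during inflammation, were all tested. None passed for genotype in limma, none had an unadjusted p under 0.05, and 4 of 9 had a higher ΔRRE mean on the log2 scale. *Alb* measured 22646 and 30379 FPKM in ΔRRE CT14 replicates 1 and 2, and over 24 libraries had an r of -0.60 with the mean standardized level of the 10 genes (-0.59 without ΔRRE CT14 replicate 1). *Ttr* (-0.62, and -0.53 without that library), which encodes transthyretin, and *Rbp4* (-0.33 and -0.38), the retinol carrier, were also below 0. The r of the other 6 genes was above 0, up to 0.67 for *Fetub*, and the median r of the list was 0.31.

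Markers of other liver cell types were summed per library. The neutrophil list of 11 markers ran from 0.470 to 8.96 FPKM in WT (median 1.24) and from 0.771 to 17.5 FPKM in ΔRRE (median 2.92). The highest was ΔRRE CT14 replicate 1, and all 11 markers were higher there than in replicate 2, which summed to 1.16 FPKM. *S100a9* measured 5.91 and 0.710 FPKM in these libraries and *S100a8* 5.13 FPKM and 0. The defining marker *Ly6g* was listed at 0 in 22 of 24 libraries, and only 1 of the 11 had a mean of at least 1 FPKM. The ΔRRE CT10 libraries, which were next highest for the 10 genes, had neutrophil sums of 3.92 and 2.68 FPKM. The log2 sum had an r of 0.61 with the mean standardized level of the 10 genes, and of 0.46 without ΔRRE CT14 replicate 1, and the part of these cells in the result was not tested. *Lcn2* is itself a granule protein gene of neutrophils.

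The Kupffer cell and macrophage list of 8 markers ran from 14.6 to 102 FPKM in WT and from 29.8 to 73.6 FPKM in ΔRRE, with 51.1 and 40.7 FPKM in ΔRRE CT14 replicates 1 and 2 and an r of 0.17 with the set. The hepatocyte sum was 30618 and 36898 FPKM in these libraries. Most of it came from *Alb* (22646 and 30379 FPKM) and *Ttr* (2656 and 3309 FPKM), which are also on the negative acute-phase list. The other 4 of the 6 hepatocyte markers were higher in replicate 1. Stellate cell markers summed to 65.1 and 30.8 FPKM there, within the WT range of 27.3 to 72.9 FPKM. Of the pancreatic acinar markers, *Prss2*, *Cpa1* and *Pnlip* were listed at 0 in every library. The share of FPKM on mitochondrial genes was 11.6% in ΔRRE CT14 replicate 1 (rank 23 of 24 from the highest) and 13.6% in replicate 2. Its overall range was from 11.5% to 17.9%. Over 24 libraries it had an r of -0.59 with the mean standardized level of the 10 genes, and of -0.51 without ΔRRE CT14 replicate 1. Total FPKM, at 556432 in that library, also ranked 23 of 24 there and had an r of -0.51 (-0.43 without that library). The part of either in the result was not tested.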

How the data were processed

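Poly(A)-tailed RNA of mouse liver was sequenced from 24 directional libraries, with 2 libraries per genotype and time point. The authors deposited 1 table of FPKM per gene for each library, without pooling; per the submitters' processing notes they used Trimmomatic 0.39, HISAT2 2.1.0, StringTie 1.3.5 and mm10. No read counts were used here, so no count model was fitted and precision rests on the spread between libraries. The 10 genes and all lists were chosen with earlier results of these data known.

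The deposited FPKM were put on the log2(FPKM + 0.1) scale. The 11244 genes whose mean reached 1 FPKM were analysed in limma 3.58.1 (R 4.3.3), using a trended prior and Benjamini-Hochberg adjustment over all of them. The genotype model had time point as a factor, and the wave models a cosine and a sine of 24 h. All groups came from the labels. A gene of a list was named where the 2 ΔRRE CT14 libraries differed by over 1 on the log2 scale, at most 10 per list, with 8 pathway landmarks and the 10 genes most correlated with the set. Genes outside this rule (neutrophil and acinar markers, *C4b*, *Stat5a*, *Cebpa*, *Ttr*, *Hamp*, *Serpina1a* and *Serpina1b* among them) were named after their values were seen. The fits were tested on simulated data. Alternatives were other constants, filters and scales, the replicate number as a term, a prior without trend, time point as a factor, and leaving out each library or time point. Sequences were read from RefSeq, and correlations and figures were made in Python 3.11.15.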

Additional observations from a re-analysis of the deposited data

How the results depend on the processing

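The genotype test called 0 of the 10 genes in every alternative that was run. The joint-wave count of 2 was 1 without the filter on low values, with the libraries scaled by the median of ratios, with a prior without trend, and without CT2, CT6 or CT22, and 0 with time as a factor or without CT10 or CT18. It ran from 1 to 3 when 1 library was left out. The WT count of 1 was 0 without the filter, with a spread shared by both genotypes, with time as a factor and without CT2, CT6, CT10, CT14 or CT22, and ran from 0 to 1 over left-out libraries. The ΔRRE count of 0 was 1 without CT14 and ran from 0 to 1. By the criteria of the study the WT count of 3 ran from 2 to 5 over left-out libraries, and the ΔRRE count of 9 was 1 without CT10 and ran from 7 to 10.

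With the replicate number as a block the joint-wave count was 1, and the block changed no other call of the 10 genes. Replicate numbers did not pair the libraries at every time point. The deviations of same-numbered WT and ΔRRE libraries of a time point had r from -0.12 to 0.21, with a median of 0.075. Of these 6, 2 were above 0.1, at CT2 (0.21) and CT18 (0.20). Over all 66 pairs of groups r ran from -0.14 to 0.30, with a median of 0.067.

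The pathway list's 11 joint waves were 7 without CT10 or CT14 and 6 without CT18, the 12 of the other positive genes were 7 without CT10 and 5 without CT18, and the 3 of the negative genes were 1 without the filter, CT2, CT10 or CT14. The *Socs3* genotype difference of 0.07 was -0.087 without CT10, -0.016 without CT14 and -0.10 without CT22, and ran from -0.14 to 0.23 over left-out libraries. Scaled to TPM, 5 rather than 7 genes were without overlap at CT6, an alternative chosen after seeing the data. The cause of these changes was not tested. Leaving out a time point also leaves fewer libraries.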
